A study of Homo sapiens with 6 samples.

Results

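The 75 replication-dependent histone genes of BT-549 cells, a human triple-negative breast cancer (TNBC) cell line, were followed after silencing of PBRM1, a subunit of the PBAF chromatin remodeling complex. They were selected by a rule on names, as gene symbols that begin with HIST1 to HIST4 and one of the class names H1, H2A, H2B, H3 or H4. A further 14 symbols that contain PS, a mark of pseudogenes, were left out. The set was chosen with earlier results of these data known. The 75 members, of 37887 rows in the count table, fall into 6 genes for H1, 17 for H2A, 22 for H2B, 15 for H3 and 15 for H4. By cluster, 55 belong to HIST1 on chromosome 6, 15 to HIST2 and 4 to HIST3 on chromosome 1, and 1, HIST4H4, to chromosome 12.

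Poly(A)-selected RNA-seq was carried out on 2 groups of 3 libraries. The shCTL libraries, labeled control shRNA, came from cells given 0.1% DMSO, the vehicle. The shPBRM1 libraries, labeled PBRM1 shRNA, came from cells given doxycycline (DOX) at 500 ng/ml. The series description, which differs from the sample titles here, has all cells carry a tet-inducible PBRM1 shRNA vector. Under either reading silencing and DOX itself cannot be told apart, and no non-targeting shRNA with DOX was among the samples analysed here. The labels give triplicate cultures, and p-values measure the spread between these libraries, which may be partly technical. Total counts were 36429395 to 65096297 per library. PBRM1 fell from 158 ± 2.30 to 41.9 ± 1.22 CPM (SD, n = 3; CPM, counts scaled to library size). Its log2 fold change was -1.91 (standard error 0.027; edgeR adjusted p = 9.98e-23). The 5 mesenchymal markers fixed for BT-549 (VIM, ZEB1, FN1, SPARC, CDH2) summed to 5399 to 5598 CPM in shCTL and 4385 to 4655 CPM in shPBRM1, and all 6 markers of blood and endothelial cells stayed under 1 CPM in each library. Most of the mesenchymal sum was SPARC. In log2 fold change FN1 (-1.33), ZEB1 (-0.55) and SPARC (-0.37) fell, and VIM (0.31) and CDH2 (0.54) rose. The 5 markers listed as absent or low summed to 55.9 to 57.2 CPM in shCTL and 50.9 to 52.6 CPM in shPBRM1. Most of this sum was ERBB2, CDH1 was detected and fell (log2 fold change -1.73), and ESR1, PGR and EPCAM were under 1 CPM in each library.

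Histones package DNA into nucleosomes: H2A, H2B, H3 and H4 form the core particle, and the linker histone H1 binds the DNA between particles. The replication-dependent genes are transcribed mainly in S phase, when new DNA must be packaged. They lie in clusters, have almost no introns, and their transcripts usually end in a stem-loop in place of a poly(A) tail. The stem-loop binding protein SLBP holds this loop, and the U7 small nuclear ribonucleoprotein directs the cut behind it. Some of these genes also make longer transcripts that run past the loop and carry a poly(A) tail. An mRNA kit that enriches tailed RNA was used here, so the counts measure the histone RNA that was captured, and not tailed and untailed RNA separately.

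The stem-loop is shown for 5 members because it is the feature that sets these transcripts apart. It was searched as a fixed pattern in the GENCODE v29 transcripts (GRCh38) and was found in 29 of the 75 members. Some members are annotated with short transcripts, such as HIST1H2BK with 381 bases, which may end before the loop. A member without a match is therefore not known to lack the loop. The loop itself is in capitals, with up to 5 bases on each side.

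HIST1H2AE, transcript positions 443 to 458: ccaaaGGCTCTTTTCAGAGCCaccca
HIST1H3H, transcript positions 453 to 468: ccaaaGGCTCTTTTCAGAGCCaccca
HIST1H4B, transcript positions 337 to 352: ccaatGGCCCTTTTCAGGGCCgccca
HIST1H4I, transcript positions 1067 to 1082: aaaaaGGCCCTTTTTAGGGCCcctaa
HIST2H2BC, transcript positions 456 to 471: ccaaaGGCTCTTTTCAGGGCCattta

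The first 3 belong to genes that rose over 2-fold. HIST1H4I did not pass the test, and HIST2H2BC, annotated as a pseudogene, rose by less than 2-fold, so the loop was annotated in members of each kind.

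The 250 bases before the RefSeq start site (GRCh38.p14) are shown for 4 members, since most members moved together: HIST1H3B, with the largest fitted change among members above 1 CPM in each library, HIST1H2AG and HIST1H4B, which rose over 2-fold, and HIST1H1D, which rose little. Capitals mark the letters of the CCAAT box (CCAAT), the TATA box (TATAAA) and the octamer bound by POU2F1 (ATTTGCAT). They were searched on both strands and marked wherever they stood. A marked stretch is therefore not always an element of the named gene. No motif contains another.

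HIST1H3B, chr6:26032100-26032349, minus strand: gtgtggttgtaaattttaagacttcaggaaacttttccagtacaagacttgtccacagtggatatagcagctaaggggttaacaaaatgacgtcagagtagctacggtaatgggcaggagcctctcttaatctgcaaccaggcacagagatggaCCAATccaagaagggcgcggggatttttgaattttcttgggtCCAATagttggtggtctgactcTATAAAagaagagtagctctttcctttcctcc
HIST1H2AG, chr6:27132793-27133042, plus strand: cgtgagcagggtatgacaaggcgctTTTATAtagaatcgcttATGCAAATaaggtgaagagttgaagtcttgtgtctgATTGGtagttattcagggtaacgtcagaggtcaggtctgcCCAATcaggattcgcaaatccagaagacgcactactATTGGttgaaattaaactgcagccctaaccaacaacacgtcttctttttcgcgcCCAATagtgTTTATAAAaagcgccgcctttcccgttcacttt
HIST1H1D, chr6:26234988-26235237, minus strand: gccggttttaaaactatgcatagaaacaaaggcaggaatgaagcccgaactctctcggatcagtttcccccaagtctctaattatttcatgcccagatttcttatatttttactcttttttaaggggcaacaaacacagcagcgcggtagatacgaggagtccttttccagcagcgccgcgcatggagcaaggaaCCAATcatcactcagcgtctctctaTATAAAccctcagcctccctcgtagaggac
HIST1H4B, chr6:26027284-26027533, minus strand: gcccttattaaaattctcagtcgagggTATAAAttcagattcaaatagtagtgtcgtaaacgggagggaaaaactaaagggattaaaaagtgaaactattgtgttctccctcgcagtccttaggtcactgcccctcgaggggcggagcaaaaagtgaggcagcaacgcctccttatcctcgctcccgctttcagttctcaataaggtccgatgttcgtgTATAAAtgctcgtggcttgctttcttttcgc

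A promoter was matched for 65 members. CCAAT stood in 55 of them (84.6%) against 32.0% of all 35116 promoters of the same length, and TATAAA in 44 (67.7%) against 10.7%. CCAAT was in each matched promoter of H1, H2A, H2B and H3, but in 3 of 13 for H4. ATTTGCAT was in 11 of 16 H2A and 14 of 18 H2B promoters and in none of the 6 for H1, 12 for H3 and 13 for H4, against 1.6% of all promoters. These matches describe letters in the window and not bound sites. The 65 windows are not all separate. Head-to-head H2A and H2B genes can share most of a window, so the same site can count for both genes. HIST1H2AG (chr6:27132793-27133042) and HIST1H2BJ (chr6:27132796-27133045) are an example. Near-identical copies, such as HIST2H4A and HIST2H4B, were also counted separately.

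Most histone genes with enough reads rose in shPBRM1. A filter on low counts left 61 of the 75 members for the test, and 59 of these passed it on the shCTL libraries alone. Of the 61, 55 were higher in shPBRM1 and 1, HIST1H1T, was lower at an adjusted p under 0.05 (edgeR quasi-likelihood test, Benjamini-Hochberg over 15450 genes), where 31.5% of all tested genes were higher and 33.2% lower. Among the 59 that passed on shCTL alone, 54 were higher. With the fold also over 2, 50 members were higher and 0 lower, against 2.87% and 9.68% of all tested genes. The median log2 fold change of the 61 was 1.34, or 2.52-fold, and that of all tested genes was -0.01. In 55 of the 61 every shPBRM1 library lay above every shCTL library, as in 33.3% of all tested genes, and in 1, HIST1H4I, every shPBRM1 library lay below, as in 35.0%. More cells in S phase and more histone RNA per cell cannot be told apart in bulk RNA. The limit of 2-fold was passed with 40 members when the fold itself was tested against 2 (glmTreat).

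**Figure D1:**
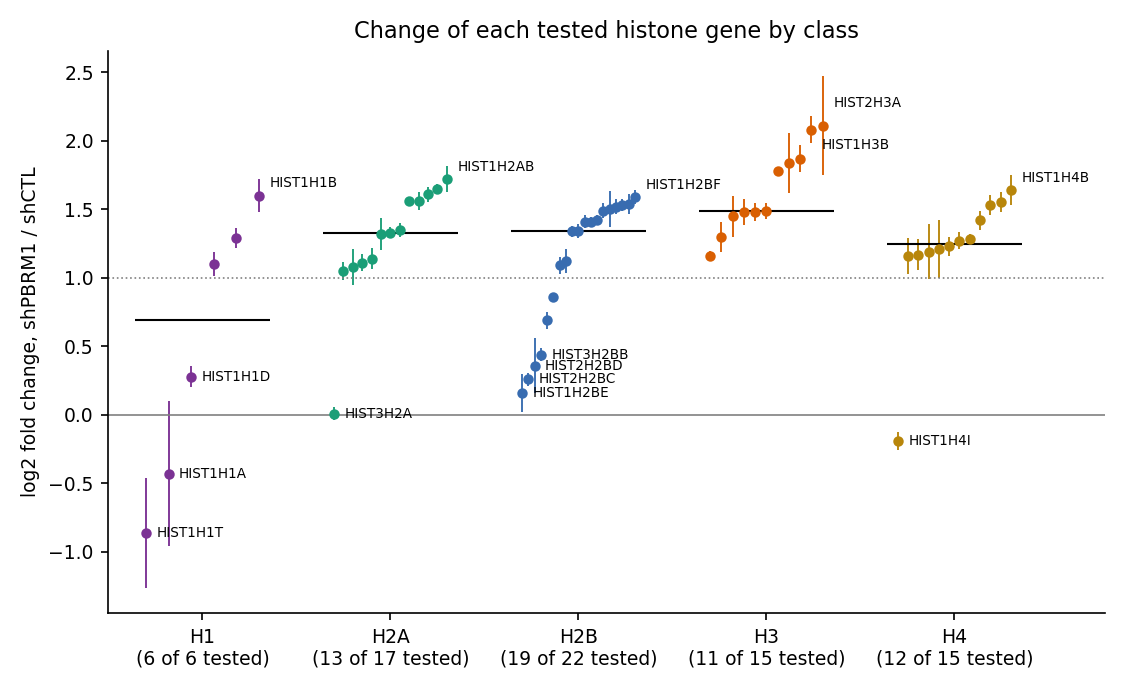
Log2 fold change of shPBRM1 over shCTL for the 61 tested members, by class, ordered by size within a class; bars are standard errors (3 libraries per group), the black line is the class median and the dotted line marks 2-fold. Most points of the 4 core classes lie between 1 and 2, H3 has the highest median (1.49), and the H1 points spread from -0.86 to 1.60.

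In the plot of change against mean level, 58 of the 61 tested members lay above 0, and the 3 below it were HIST1H1T, HIST1H1A and HIST1H4I.

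**Figure D2:**
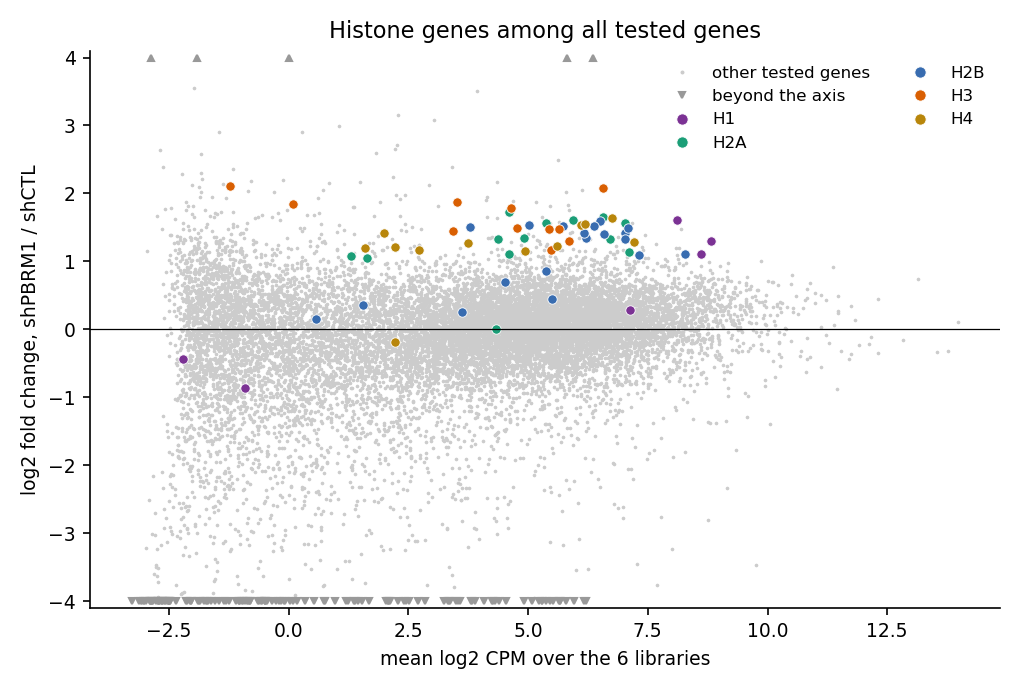
Log2 fold change against mean log2 CPM over the 6 libraries for the 15450 tested genes (grey) with the 61 tested histone members in color by class. 141 genes lie beyond the axis and are drawn as triangles at its edges. Most members lie above 1 while the median of all genes is -0.01.

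The histone genes took 0.273, 0.297 and 0.277% of all shCTL counts, by library, and 0.655, 0.695 and 0.677% of those in shPBRM1. Summed over a class, the level was higher in each shPBRM1 library than in each shCTL library for all 5 classes. H3 had the largest ratio: its sum was 200, 228 and 208 CPM in shCTL and 617, 642 and 671 CPM in shPBRM1, which is 3.04-fold (log2 ratio 1.60, standard error 0.066). H1 had the smallest, with 800, 907 and 817 CPM in shCTL and 1770, 2074 and 1909 CPM in shPBRM1, which is 2.28-fold (log2 ratio 1.19, standard error 0.087). Between them lay H4 (2.64-fold), H2A (2.61-fold) and H2B (2.41-fold).

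The share of each class was compared next, as a description. An exact permutation test of 3 against 3 libraries cannot reach a p under 0.05. The class shares add up to the whole, so they do not move independently. As a share of all histone CPM, H3 went from 7.63 ± 0.131% to 9.36 ± 0.361% (SD, n = 3), H4 from 11.4 ± 0.109% to 12.2 ± 0.223% and H2A from 15.6 ± 0.274% to 16.4 ± 0.404%. H1 went from 30.3 ± 0.601% to 27.9 ± 1.05%, and H2B from 35.1 ± 0.549% to 34.2 ± 0.734%. For H1, H2A, H3 and H4 the groups did not overlap, which gives p = 0.1 (exact permutation test, two-sided, 0.125 adjusted over the 5 classes), the smallest p that 3 against 3 libraries allow, and for H2B p = 0.2 (exact permutation test). These shares are of reads, so longer transcripts weigh more. The H3 ratio rested in part on HIST1H3B: without it the log2 ratio of the class sum was 1.44.

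**Figure D3:**
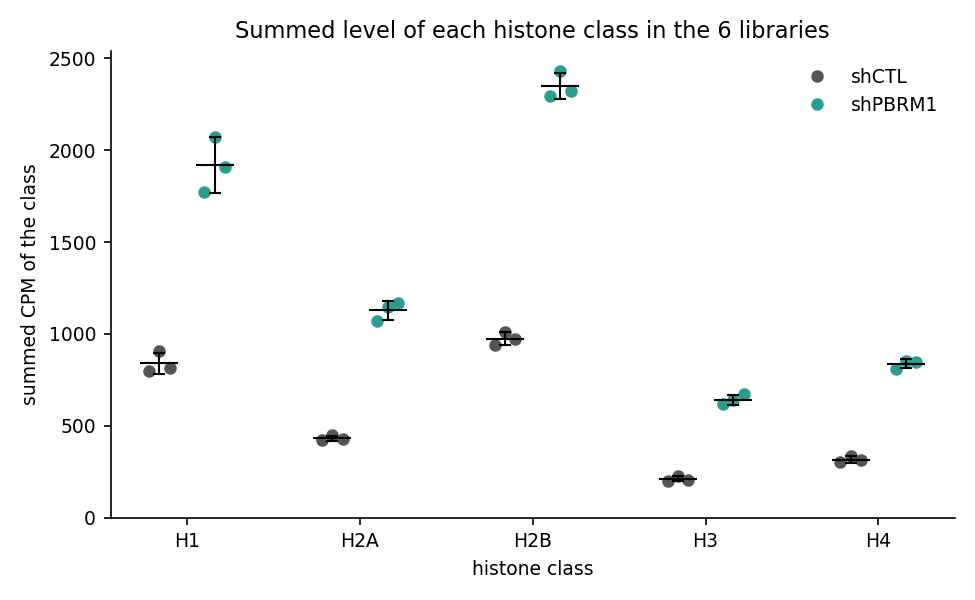
Summed CPM of each histone class in the 6 libraries; points are libraries, bars are mean ± SD of 3 libraries. The shPBRM1 points lie above the shCTL points in each class, from 2.28-fold for H1 to 3.04-fold for H3.

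Linker histone genes moved apart from each other. Of 6 tested, 4 rose, 3 of them over 2-fold, and the class median was 0.69. It was 1.19 when 50 counts on average were required, which leaves out HIST1H1A and HIST1H1T. HIST1H1B had the largest change, at 149, 177 and 151 CPM in shCTL and 430, 530 and 491 CPM in shPBRM1, a log2 fold change of 1.60 (standard error 0.12; edgeR adjusted p = 5.18e-16). HIST1H1C, the H1 member with the most reads, was at 280, 307 and 282 CPM in shCTL and 661, 759 and 710 CPM in shPBRM1, a log2 fold change of 1.29 (standard error 0.071; edgeR adjusted p = 1.79e-16). In neither gene did the groups overlap. HIST1H1E rose from a mean of 266 to 570 CPM, a log2 fold change of 1.10 (edgeR adjusted p = 2.04e-14).

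HIST1H1D stood apart from these 3. It was at 118, 139 and 122 CPM in shCTL and 148, 160 and 151 CPM in shPBRM1, a log2 fold change of 0.28 (standard error 0.080; edgeR adjusted p = 2.10e-05). The groups did not overlap, but the highest shCTL library was close to the lowest shPBRM1 library. Its share of the H1 reads went from 15.0 ± 0.297% to 8.01 ± 0.337% (SD, n = 3), while that of HIST1H1B went from 18.9 ± 0.590% to 25.2 ± 0.772%. The promoter of HIST1H1D printed above holds both the CCAAT box and the TATA box.

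HIST1H1T, which encodes a linker histone of the testis, was the only member called lower. It had few reads, with 156 counts over all libraries. It was at 0.750, 0.370 and 0.952 CPM in shCTL and 0.433, 0.308 and 0.377 CPM in shPBRM1, where 3 counts are 0.0461 to 0.0824 CPM. Its log2 fold change was -0.86 (standard error 0.40; edgeR adjusted p = 0.0445). The groups overlapped, and the call was lost with DESeq2 (adjusted p = 0.115) and without any single library other than shCTL replicate 2. HIST1H1A, named here after its value was seen, had 60 counts over all libraries and was not called (log2 fold change -0.43; edgeR adjusted p = 0.495). The other testis-type members had too few reads for the test: HIST1H2AA had 7 counts in all, HIST1H2BA 28 and HIST3H3 27.

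The linker histone genes that work outside the replication-dependent set went the other way. H1F0, whose product is known to accumulate in differentiated and non-dividing cells, was at 1282, 1304 and 1250 CPM in shCTL and 245, 263 and 254 CPM in shPBRM1. Its log2 fold change was -2.33 (standard error 0.034; edgeR adjusted p = 3.91e-23). H1FX fell from a mean of 131 to 73.7 CPM (log2 fold change -0.84, standard error 0.099; edgeR adjusted p = 2.25e-12). In neither gene did the groups overlap.

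**Figure D4:**
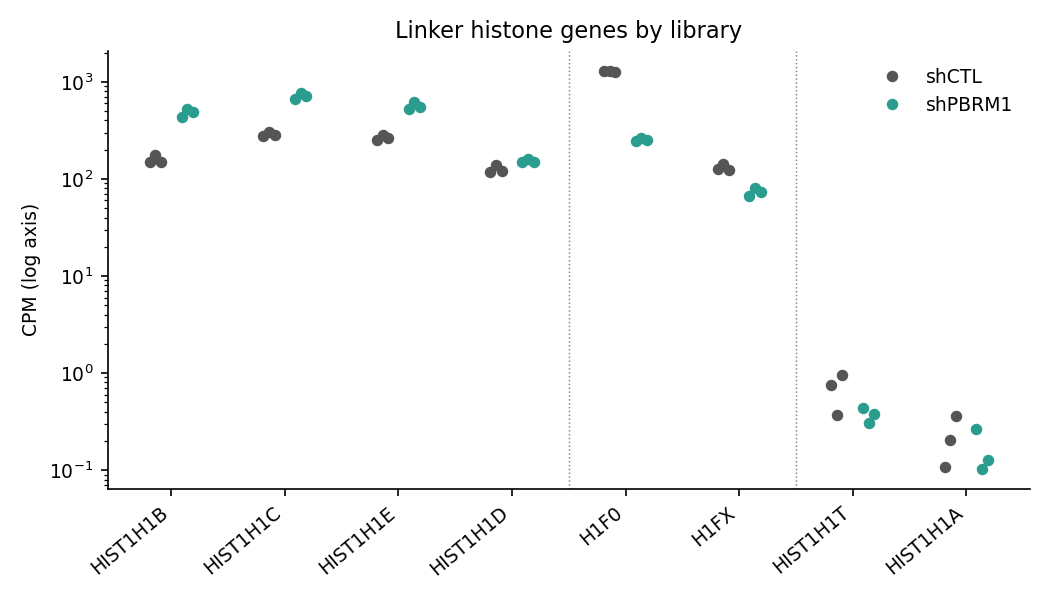
CPM of 6 replication-dependent and 2 other linker histone genes in each library, on a log axis, with shCTL in grey and shPBRM1 in green. HIST1H1B, HIST1H1C and HIST1H1E are higher in shPBRM1, HIST1H1D rose by less, H1F0 and H1FX are lower, and HIST1H1T and HIST1H1A lie under 1 CPM with overlapping groups.

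H2A genes, whose products pair with H2B at the faces of the core particle, rose almost as a block. Of 13 tested, 12 rose, all of them over 2-fold, with a class median of 1.33. HIST2H2AC was at 72.6, 80.2 and 73.9 CPM in shCTL and 208, 230 and 231 CPM in shPBRM1, a log2 fold change of 1.56 (standard error 0.066; edgeR adjusted p = 8.78e-19). HIST1H2AG was at 53.1, 55.0 and 51.5 CPM in shCTL and 163, 167 and 172 CPM in shPBRM1, a log2 fold change of 1.65 (standard error 0.035; edgeR adjusted p = 5.48e-21). The groups lay far apart in both genes.

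HIST1H2AB had the largest fitted change of the class (1.72, standard error 0.094), from a mean of 13.5 to 44.4 CPM. Among the members with the most reads, HIST1H2AC had a log2 fold change of 1.14, HIST1H2AE of 1.33 and HIST1H2AI of 1.61. HIST3H2A, from the HIST3 cluster, did not follow. It was at 21.2, 20.0 and 19.0 CPM in shCTL and 20.3, 20.0 and 20.1 CPM in shPBRM1, a log2 fold change of 0.01 (standard error 0.046; edgeR adjusted p = 0.935). Its groups overlapped, and its share of the H2A reads went from 4.65 ± 0.339% to 1.79 ± 0.0950% (SD, n = 3).

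Of 19 tested H2B genes, 17 rose, 13 of them over 2-fold, with a median of 1.34 and a range of 0.16 to 1.59. HIST2H2BE, the H2B member with the most reads, was at 203, 217 and 211 CPM in shCTL and 406, 494 and 466 CPM in shPBRM1, a log2 fold change of 1.12 (standard error 0.088; edgeR adjusted p = 1.42e-14). HIST1H2BF had the largest change of the class, at 53.8, 53.5 and 49.8 CPM in shCTL and 158, 165 and 150 CPM in shPBRM1, a log2 fold change of 1.59 (standard error 0.052; edgeR adjusted p = 6.37e-20). Neither gene had overlapping groups.

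Between these genes in log2 fold change lay HIST1H2BD (1.49), HIST1H2BC (1.41) and HIST1H2BK (1.34), and HIST2H2BF (1.09) lay just under HIST2H2BE. HIST1H2BE, annotated with a short and a long transcript, was at 1.39, 1.34 and 1.39 CPM in shCTL and 1.65, 1.72 and 1.26 CPM in shPBRM1, and was not called (log2 fold change 0.16, standard error 0.14; edgeR adjusted p = 0.512). Of the remaining members, chosen after their values were seen, 4 rose by less than 2-fold: HIST1H2BL (0.86), HIST1H2BM (0.69), HIST3H2BB (0.44) and HIST2H2BC (0.26). HIST2H2BD (0.36) was not called (edgeR adjusted p = 0.0545) and was called with the replicate number as a block. HIST2H2BC and HIST2H2BD are annotated as pseudogenes and overlap each other on opposite strands, and the strand setting of the counting was not given in the sources used here.

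H3 was the class in which each tested gene rose. All 11 passed 2-fold, with log2 fold changes of 1.16 to 2.11 and a median of 1.49. The 11 include HIST2H3A, which entered the test through the shPBRM1 libraries only. Without it the range ended at 2.08. HIST1H3B was at 41.2, 51.1 and 45.9 CPM in shCTL and 186, 195 and 204 CPM in shPBRM1, a log2 fold change of 2.08 (standard error 0.098; edgeR adjusted p = 9.34e-20). It took 21.7 ± 0.952% of the H3 reads in shCTL and 30.3 ± 0.160% in shPBRM1 (SD, n = 3). No shCTL library came near a shPBRM1 library.

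HIST1H3C and HIST1H3H both had a log2 fold change of 1.48, HIST1H3F had 1.30 and HIST1H3I, the lowest of the class, 1.16. HIST2H3A had the highest fitted change of all members (2.11, standard error 0.36; edgeR adjusted p = 5.27e-05), but on few reads, at 0.107, 0.247 and 0.198 CPM in shCTL and 1.10, 0.668 and 0.690 CPM in shPBRM1. It passed the filter through the shPBRM1 libraries only, it overlaps HIST2H4B on the opposite strand, and HIST2H3A and HIST2H3C are near-identical copies between which reads may be split. The same holds for HIST2H2AA3 and HIST2H2AA4 and for HIST2H4A and HIST2H4B, each of which rose over 2-fold.

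H4 genes encode the partner of H3 in the core particle. Of 12 tested, 11 rose, all over 2-fold, with a median of 1.25, and 7 passed when the fold itself was tested against 2. HIST1H4E, the H4 member with the most reads, was at 91.5, 96.7 and 95.7 CPM in shCTL and 227, 239 and 226 CPM in shPBRM1, a log2 fold change of 1.28 (standard error 0.036; edgeR adjusted p = 1.35e-18). HIST1H4B had the largest change, at 56.1, 68.5 and 58.5 CPM in shCTL and 176, 206 and 192 CPM in shPBRM1, a log2 fold change of 1.64 (standard error 0.11; edgeR adjusted p = 4.20e-17). In both genes the groups were well separated.

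HIST1H4H (1.55), HIST1H4C (1.53) and HIST4H4 (1.23), the single gene of its cluster, lay between HIST1H4B and HIST1H4E or just under them in log2 fold change. HIST1H4I was the exception. It was at 4.58, 5.16 and 5.06 CPM in shCTL and 4.40, 4.55 and 4.14 CPM in shPBRM1, and was not called (log2 fold change -0.19, standard error 0.066; edgeR adjusted p = 0.149). Each shPBRM1 library lay below each shCTL library, by little. Among the tested H4 genes with a matched promoter, only the window of HIST1H4I held CCAAT, which was noticed after its value was seen, and GENCODE v29 places the start of HIST1H4I upstream of that window.

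Per kilobase of annotated exon, the members with the highest levels in shCTL were HIST1H1C (451 CPM per kb), HIST1H1E (352), HIST1H1B (234), HIST1H2BK (215) and HIST2H2AC (194). In shPBRM1, HIST1H1C stood at 1106 CPM per kb, HIST1H1E at 756, HIST1H1B at 710, HIST2H2AC at 572 and HIST1H2BK at 543. HIST1H3B went from 112 to 475 CPM per kb, and HIST1H4B from 139 to 437. Levels per kilobase depend on the annotated length, which for some members includes long alternative transcripts.

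By position, 41 of 45 tested members of HIST1 rose (median 1.41), as did 12 of 13 of HIST2 (median 1.19), 1 of 2 of HIST3 (median 0.23) and HIST4H4. The members that were not called or were lower lay among neighbors that rose. HIST1H4I and HIST1H1D are single genes within HIST1, whereas both tested genes of HIST3, HIST3H2A and HIST3H2BB, stayed under 2-fold.

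**Figure D5:**
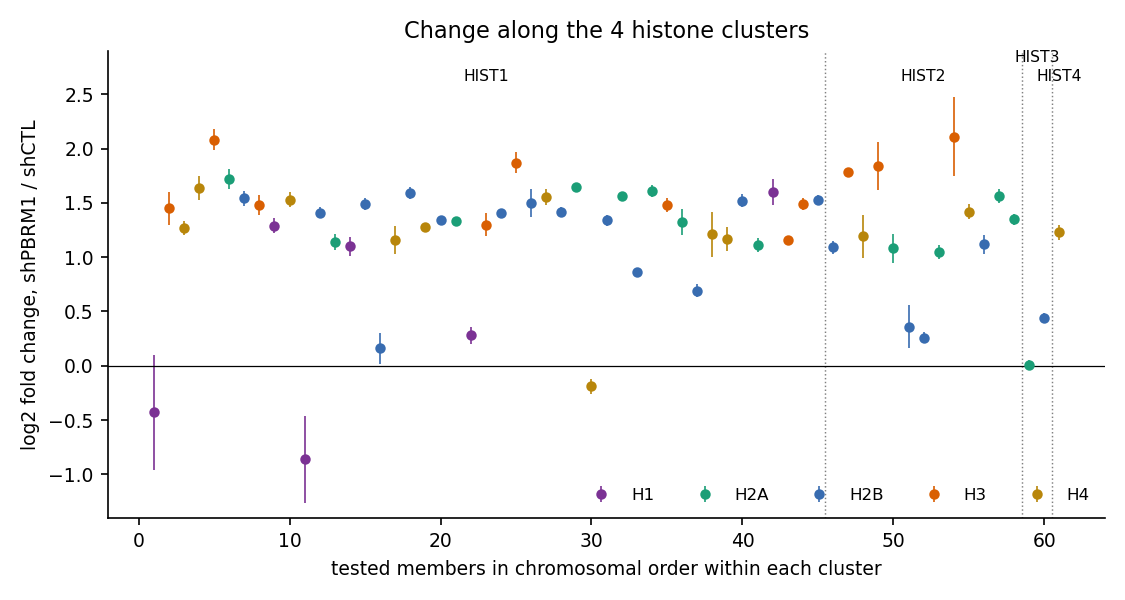
Log2 fold change with standard error (3 libraries per group) of the 61 tested members in chromosomal order within each cluster, colored by class; dotted lines part the clusters. Values lie mostly between 1 and 2 along HIST1, with single low points (HIST1H1A, HIST1H1T, HIST1H2BE, HIST1H1D, HIST1H4I) among them. HIST1H2BL (0.86) and HIST1H2BM (0.69), which lie near each other, are also under 1.

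H2A and H2B genes often lie head to head and share the stretch between their starts. There were 13 such pairs within 1000 bases, and both genes were tested in 10. As examples chosen after their values were seen, HIST1H2BG and HIST1H2AE moved alike, with log2 fold changes of 1.34 and 1.33, over a gap of 282 bases. HIST1H2BL and HIST1H2AI did not, with 0.86 and 1.61 over a gap of 267 bases. The median absolute difference within the 10 pairs was 0.44, against 0.35 over all 247 combinations of a tested H2A and a tested H2B gene. In the 8 of these pairs without a member annotated as a pseudogene it was 0.36.

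Members differ in whether tailed transcripts are known. All 7 members with known poly(A) transcripts (HIST1H1C, HIST1H2AC, HIST1H2BC, HIST1H2BD, HIST1H2BJ, HIST1H2BK and HIST2H2BE) rose over 2-fold, with a median of 1.34, and 48 of 54 other tested members rose, with a median of 1.34. The others are not a set known to be untailed. They include members annotated far past the stem-loop, such as HIST1H2AG (1761 bases) and HIST1H4H (1655 bases). By annotation, 17 of 21 tested members with 100 or more bases past the stem-loop rose (median 1.23), as did 7 of 7 with fewer (median 1.21). Of tested members with no loop found in the annotated transcript, 31 of 33 rose (median 1.42), but their annotation may end before the loop. Across the 61 tested members, log2 exon length and log2 fold change had a Pearson r of -0.17 and a Spearman rho of -0.13; these are genes measured in the same 6 libraries and not independent replicates.

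Genes that make or process histone RNA changed less. All 19 listed genes were tested. Of these, 10 rose and 5 fell, none over 2-fold, with a median of 0.16, where 31.5% of all tested genes were higher and 33.2% lower. SLBP went from 60.2 ± 0.804 to 75.3 ± 2.68 CPM (SD, n = 3; log2 fold change 0.33, edgeR adjusted p = 7.15e-08). Of the U7 particle, LSM10 (0.42) and LSM11 (0.37) rose, as did CPSF3 (0.38), the nuclease that makes the cut, and SYMPK (-0.42), the scaffold of the cleavage complex, fell. HINFP, a transcription factor of H4 genes, fell (-0.43), and NPAT, a coactivator of histone genes, was at a log2 fold change of -0.03 and was not called.

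Among 18 genes of S phase and DNA replication, 13 rose and 1 fell, with a median of 0.32. Of all tested genes, 31.5% were higher and 33.2% lower. CCNA2, the cyclin of S and G2 phase, was the 1 that passed 2-fold, from 56.0 ± 0.560 to 124 ± 2.11 CPM (SD, n = 3; log2 fold change 1.15, edgeR adjusted p = 1.15e-18). RRM1, a subunit of ribonucleotide reductase, had a log2 fold change of 0.98 and TYMS, thymidylate synthase, of 0.75, whereas MCM6, part of the replicative helicase, fell (-0.22). The part of these genes in the histone result was not tested.

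Of 7 histone chaperones, 4 rose and 2 fell, with a median of 0.09, where 31.5% of all tested genes were higher and 33.2% lower. ASF1B (0.77), CHAF1A (0.48) and CHAF1B (0.47), which serve nucleosome assembly at replication, rose, and HIRA (-0.53) and DAXX (-0.58), which serve assembly apart from replication, fell. DAXX was uneven, at 44.6, 45.9 and 45.2 CPM in shCTL and 22.8, 42.6 and 26.6 CPM in shPBRM1. NASP rose by little (0.09), and ASF1A (0.06) was not called. All 11 genes of histone variants were called: 6 rose and 5 fell, with a median of 0.37, against the same shares of all tested genes. H2AFV (1.03) rose over 2-fold, and H2AFZ (0.93), H3F3A (0.76), H2AFX (0.71), CENPA (0.71) and H2AFY (0.37) rose by less. H3F3B, which encodes the same protein as H3F3A, fell (-0.23), as did H2AFJ (-0.16), H2AFY2 (-1.45, on few reads) and, described above, H1F0 and H1FX.

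RNAs that lack a poly(A) tail for other reasons, such as small nuclear RNAs, were listed beside the histone genes. Their counts do not measure how much untailed RNA was captured, since no level before capture was measured. Some, such as RN7SK and RNU7-1, had 0 counts in each library. Of 28 listed, 16 were tested, with a median of 0.30. Of these, 6 rose, near the 31.5% of all tested genes that were higher. Only 1, SCARNA5 (-0.49), fell, where 33.2% of all tested genes were lower. With the replicate number as a block 7 rose and 2 fell. RNU5D-1 (1.8) and RNU11 (1.22) passed 2-fold, at means of 1.33 and 4.68 CPM and of 0.176 and 0.399 CPM in shCTL and shPBRM1. The most abundant, RN7SL1, was at 15810 and 17018 CPM and was not called (log2 fold change 0.11, standard error 0.22; edgeR adjusted p = 0.322), but was higher with the block (edgeR adjusted p = 0.0416). Their part in the histone result was not tested.

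The 14 members that were not tested had 0 to 50 counts over the 6 libraries. Of H2A these were HIST1H2AA, HIST1H2AD, HIST1H2AK and HIST1H2AM, of H2B HIST1H2BA, HIST2H2BA and HIST3H2BA, of H3 HIST1H3D, HIST1H3E, HIST2H3DP1 and HIST3H3, and of H4 HIST1H4F, HIST1H4G and HIST1H4L. HIST1H2AK and HIST2H3DP1 had 0 counts in each library, where 3 counts, the limit that a count of 0 allows, are 0.0461 to 0.0824 CPM, and this covers counting error only. HIST1H2AK lies within HIST1H2BN, and HIST1H2AM overlaps HIST1H3J, so reads there may not have been assigned to either gene. A change in these 14 members was not detectable at this depth.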

How the data were processed

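RNA-seq of 3 shCTL and 3 shPBRM1 libraries was analysed from the table of raw counts per gene that the authors deposited. The libraries were made with TruSeq Stranded mRNA. The submitters' processing notes name GRCh38.p7, CASAVA 1.8.2, STAR 2.7.9a, featureCounts and DESeq2 1.24.0. The gene annotation, the strand setting and the handling of reads with several matches were not given in the sources used here. Reads shared by near-identical histone genes may therefore be split or lost. The control columns name the cell line and a number but no shRNA, and were matched to the control titles by these. There are 14 rows that carry dates in place of symbols.

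Counts were tested with edgeR 4.0.16 (R 4.3.3; TMM factors, filterByExpr, quasi-likelihood test, Benjamini-Hochberg over 15450 genes, adjusted p under 0.05), tested on simulated data. CPM used TMM-scaled library sizes. Each standard error was computed from log2 CPM within the groups. Alternatives were DESeq2 1.42.0, RLE factors, library size only, other filters, glmTreat, the replicate number as a block and leaving out each library. Deviations of same-numbered libraries correlated over 5622 genes (r = 0.734, 0.593 and 0.419). Those of differently numbered libraries had r of -0.671 to 0.464, the highest for shCTL replicate 2 with shPBRM1 replicate 3. The numbers were therefore taken as a possible pairing, used in the block and not in the main fit. Where such a pairing comes from is not stated in the labels. Libraries of a group differed by more than sampling noise (chi-square per degree of freedom 4.66 to 22.6).

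Members were described by class. Named with values were, in each class, the 5 members with the most counts, those with the highest and the lowest fitted change, members called lower, testis-type members and HIST4H4. Some further members are named as examples, chosen after their values were seen. The members and lists were chosen with earlier results of these data known. Annotation came from GENCODE v29 (all 75 members matched, 70 as protein-coding and 5 as pseudogenes) and promoters from RefSeq (GRCh38.p14; for 4 members with several starts, the window nearest the GENCODE start). Gene symbols were used as given in the table, and 2 listed genes were matched through RefSeq synonyms (TUT4 and TUT7).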

Additional observations from a re-analysis of the deposited data

How the results depend on the processing

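Of 370 values of the 31 named members under the alternatives, 361 kept their direction and their side of the threshold. The 6 that lost the call were all for HIST1H1T, and the 3 that changed sign were for HIST3H2A, which was not called in any of them: -0.04 with library size only, -0.0035 when 50 counts on average were required and -0.03 without shCTL replicate 3. The number of members higher was 54 to 56 (55 with DESeq2, 56 with the replicate block), and the number over 2-fold was 40 to 50. The replicate block added HIST2H2BD to the members called and changed no other member's call. Members lower, in all and for H1, numbered 0 with DESeq2 and under that stricter filter, and 0 to 1 when a library was left out, as did those lower over 2-fold. Class medians moved to 1.19 for H1 when 50 counts on average were required, to 1.23 for H2A with no filter and to 1.23 for H2B with DESeq2 and with no filter, and that of H3 was 1.46 to 1.55 when a library was left out. The log2 ratio of summed H3 was 1.44 without its member with the most reads, and 7 H4 members passed glmTreat. With library size only, which shifted the median of all genes to -0.056, the medians were 0.28 for S-phase genes and 0.04 for chaperones, 2 S-phase genes were lower, and 3 untailed RNAs were lower (2 with the replicate block). The cause of these changes was not tested, apart from the fewer or more genes that another filter keeps.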
